A study of Mus musculus with 3 samples.

Results

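The RNAs of 4 facilitative glucose transporters, Slc2a1 (GLUT1), Slc2a2 (GLUT2), Slc2a3 (GLUT3) and Slc2a6 (GLUT6), were followed through the cell types of mouse liver. They were chosen by name, as 4 of the 23860 genes with a column in either of the deposited tables of molecules per cell. Each table holds 1 BD Rhapsody single-cell library of liver cells, which the study describes as non-parenchymal cells (NPCs) and the sample record as parenchymal. The first came from wild-type (WT) C57BL/6J mice kept on a normal chow diet (NCD). The second pooled WT mice with Chi3l1-/- mice (Chil1-/- in the sample title), of the same strain background, after 16 weeks on a high-fat, high-cholesterol (HFHC) diet, which the study uses as a model of metabolic dysfunction-associated steatotic liver disease (MASLD). The first library is titled MCD, which is also the name of a diet used elsewhere in the study, and its file header names it APAP0h. It is called the NCD library here because the number of cells it keeps, with the limits on genes and mitochondrial molecules taken strictly, equals the number that the study gives for NCD livers. The cells kept in the HFHC pool exceed the numbers that the study gives for its HFHC livers. The genotype of each cell of the HFHC pool was not analysed here, and the number and age of the mice in each library are not given in the sources used here. With 1 library per condition there is no replicate and no test. Diet, genotype, capture and library cannot be told apart, and every interval below is a 95% interval that covers counting error only.

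Facilitative transporters of the Slc2a family let glucose pass the cell membrane along its gradient, without the use of energy. GLUT1 provides basal uptake in many cell types, GLUT3 has a high affinity for glucose and serves neurons and white blood cells, and GLUT2 has a low affinity and carries glucose in both directions across the hepatocyte membrane. GLUT6 is found in leukocytes and its role in glucose transport is less well understood. Inside the cell, hexokinases trap glucose as glucose-6-phosphate. The study compared glucose metabolism between Kupffer cells (KCs), the resident macrophages of the liver, and monocyte-derived macrophages (MoMFs). GLUT1, GLUT2 and GLUT3 stand at the entry of that pathway.

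The stretches upstream of the genes are shown because the members, which differ by cell type in the values that follow, also differ there in base composition. The table of RefSeq stretches used here, on mouse build GRCm38.p6, held 3 of the 4 genes. Each runs from 235 to 36 bases before the RefSeq start and is written 5′ to 3′ on the strand of the gene, with every CG dinucleotide in capitals. They lie at chr4:119108510-119108709 on the plus strand for Slc2a1, at chr3:28697668-28697867 on the plus strand for Slc2a2 and at chr2:27028034-27028233 on the minus strand for Slc2a6.
Slc2a1: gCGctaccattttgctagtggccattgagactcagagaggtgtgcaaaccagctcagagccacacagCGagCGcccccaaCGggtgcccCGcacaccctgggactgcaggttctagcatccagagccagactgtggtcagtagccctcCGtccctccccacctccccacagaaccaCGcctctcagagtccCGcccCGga
Slc2a2: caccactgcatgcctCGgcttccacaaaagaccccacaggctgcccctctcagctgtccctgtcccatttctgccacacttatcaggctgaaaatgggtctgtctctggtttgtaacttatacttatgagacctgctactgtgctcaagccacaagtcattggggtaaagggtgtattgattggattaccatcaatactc
Slc2a6: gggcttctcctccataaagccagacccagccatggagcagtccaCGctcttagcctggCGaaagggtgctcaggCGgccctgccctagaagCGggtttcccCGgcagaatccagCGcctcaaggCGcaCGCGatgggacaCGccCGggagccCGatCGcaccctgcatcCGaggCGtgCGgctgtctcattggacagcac
The stretch of Slc2a6 held 16 CG dinucleotides, that of Slc2a1 held 9 and that of Slc2a2 held 1, against a median of 4 over 32851 such stretches. At least 16 were found in 17.1% of all stretches, at least 9 in 33.7% and at least 1 in 89.3%. The GC box GGGCGG, read on both strands, had 1 match upstream of Slc2a1, 45 bases before the start, and in neither of the other 2, against 27.1% of all stretches. The letters ACGTG, a form of the core of the hypoxia response element, were in none of the 3, also read on both strands, against 13.2% of all stretches. Other forms of the core, such as GCGTG, were not counted. In the GENCODE annotation of GRCm38, Slc2a1 spans bases 119108711 to 119137983 of chromosome 4 on the plus strand, Slc2a2 bases 28697903 to 28731359 of chromosome 3 on the plus strand, Slc2a3 bases 122727809 to 122801640 of chromosome 6 on the minus strand and Slc2a6 bases 27021363 to 27027998 of chromosome 2 on the minus strand.

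Cells with 200 to 4000 genes and at most 25% mitochondrial molecules (UMIs) were kept, which left 23346 cells on NCD, with 1322 UMIs in the median cell, and 19625 in the HFHC pool, with 1622. The cells were clustered without any Slc2a gene, so that the transporters had no part in the classes. A class name such as neutrophils stands for cells called so from their markers alone. 15 classes were named, of which 13 had at least 50 cells in each library, and 15.5% and 3.49% of the kept cells were left unnamed. Among the named classes, the summed markers of each class were highest in that class in both libraries, and every marker had UMIs there. The clusters left out as mixed held 49440 CPM of B cell markers in the pool, against 17790 CPM in its B cells. Only 1 of the 8 MoMF markers was itself highest in MoMFs, which came next above KCs in the sum, at 5441 against 3879 CPM and 6875 against 5349 CPM. Of the 7 cDC2 markers 3 and 2 were highest in cDC2. For hepatocyte markers cholangiocytes came next, with 10980 CPM against 44500 CPM in hepatocytes on NCD and 16170 against 29150 CPM in the pool. The libraries shared 756 cell indices, and 8.17% and 2.0% of the kept cells were called doublets. Genes induced by tissue dissociation were higher in the pool in every named class, with summed levels of 6203 and 12270 CPM (UMIs per 1000000 UMIs of the class) in KCs and of 17690 and 28770 CPM in neutrophils. Their part in the results below was not tested.

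The 4 transporters differed in the classes that held them. Slc2a3 and Slc2a6 were highest in neutrophils, Slc2a1 was spread over the leukocytes with neutrophils at the top, and Slc2a2 was held by cholangiocytes and hepatocytes. The plot of levels by cell class shows the 4 patterns side by side.

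**Figure D1:**
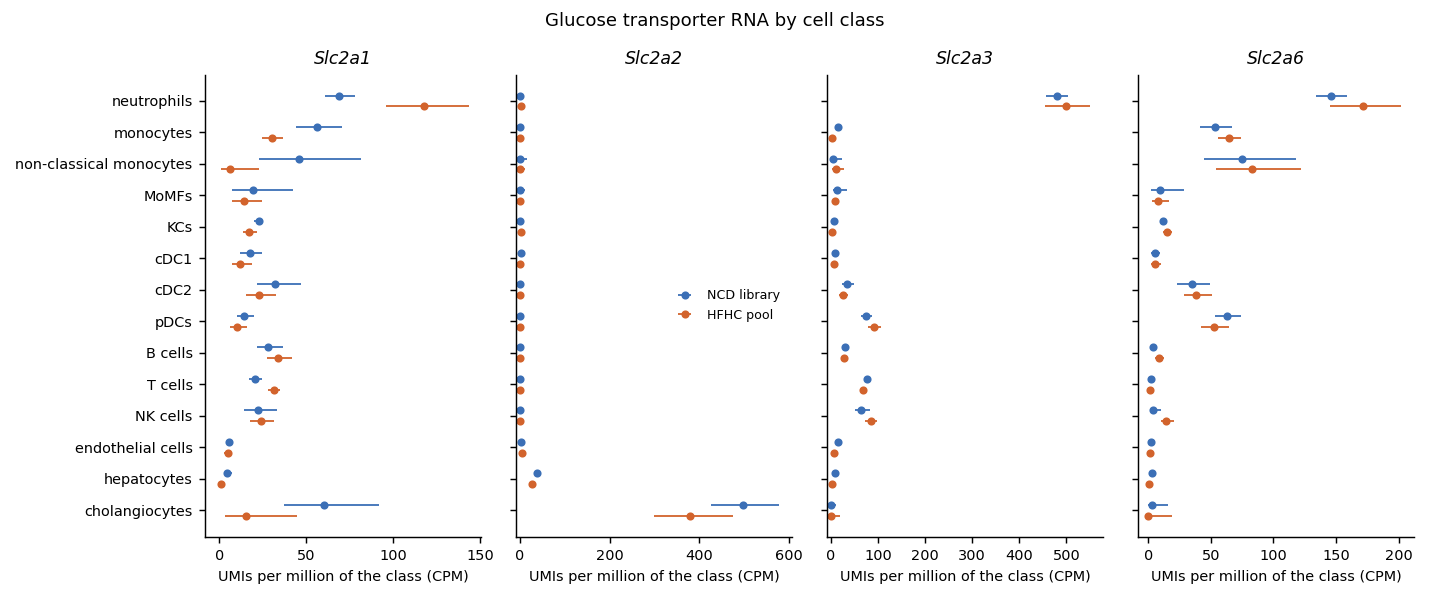
Level of each transporter (CPM, linear axis) in 14 cell classes of the NCD library (blue) and the HFHC pool (orange), with exact Poisson 95% intervals. Slc2a3 reaches 480 and 500.2 CPM in neutrophils, and Slc2a2 498 and 380.0 CPM in cholangiocytes.

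Slc2a3, the high-affinity transporter, was measured at 480 CPM (458 to 503, 1761 UMIs) in neutrophils on NCD and at 500.2 CPM (454 to 550, 425 UMIs) in the HFHC pool. The intervals overlapped. T cells at 76.8 and 67.3 CPM, plasmacytoid dendritic cells (pDCs) at 75.1 and 91.4 CPM and NK cells at 64.7 and 84.7 CPM followed in both libraries, far below neutrophils and close to one another. B cells stood at 29.2 and 27.8 CPM and conventional type 2 dendritic cells (cDC2) at 34.6 and 25.8 CPM. KCs were among the lowest classes, with 6.98 CPM (103 UMIs) in the NCD library and 2.14 CPM (9 UMIs) in the pool. No UMI of Slc2a3 was found in the 80 and 27 cholangiocytes. Levels of 8.59 and 15.2 CPM would correspond to 3 UMIs, and the exact upper limits were 10.6 and 18.7 CPM.

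Some of the low Slc2a3 values moved with neutrophil RNA, whose part in them was not tested. S100a8 and S100a9, the most abundant neutrophil transcripts, summed to 910 CPM in endothelial cells on NCD and to 110 CPM in the pool, where Slc2a3 was 14.5 and 5.33 CPM. At the ratio that neutrophils themselves had between Slc2a3 and these genes, neutrophil RNA alone would bring 8.99 CPM of Slc2a3 to endothelial cells, 4.75 of the 9.33 CPM in hepatocytes and 1.07 of the 6.98 CPM in KCs of the NCD library. Of the 2611 endothelial cells of that library, 376 were called doublets, against 1 of 656 in the pool. Without them Slc2a3 was 5.88 and 5.35 CPM in endothelial cells. In KCs it remained at 6.59 and 2.24 CPM without doublets.

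Slc2a6, the leukocyte transporter, was measured at 146 CPM (134 to 159, 535 UMIs) and 172 CPM (145 to 202, 146 UMIs) in neutrophils. Non-classical monocytes, the patrolling subset, followed with 74.6 and 83.1 CPM, pDCs with 62.8 and 52.2 CPM, monocytes with 53.3 and 64.5 CPM and cDC2 with 34.6 and 38.3 CPM. T cells had 2.23 and 1.42 CPM and endothelial cells 2.0 and 1.52 CPM. The myeloid classes were not alike, since conventional type 1 dendritic cells (cDC1) had 5.07 and 5.09 CPM and MoMFs 9.67 and 8.18 CPM. T cells, which were second for Slc2a3 in the NCD library, were near the bottom for Slc2a6. KCs stood at 11.5 CPM (9.85 to 13.4) and 15.0 CPM (11.5 to 19.2).

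Slc2a1, the basal transporter, was the most evenly spread. In the NCD library 11 of the 13 classes stood above 10% of the highest class, against 4 for Slc2a3 and 5 for Slc2a6. Neutrophils had 68.7 CPM (60.5 to 77.7) and 118 CPM (95.8 to 143), monocytes 56.2 and 30.3 CPM, B cells 28.3 and 33.8 CPM, NK cells 22.2 and 23.9 CPM, T cells 20.7 and 31.2 CPM and KCs 22.6 and 17.2 CPM. Neutrophils and monocytes of the NCD library were not separated beyond counting error, with a log2 ratio of 0.28 (-0.08 to 0.68), whereas in the pool the log2 ratio was 1.96 (1.55 to 2.37). Of the 13 classes hepatocytes were the lowest in both libraries, at 4.52 and 1.16 CPM. Cholangiocytes had 60.1 CPM (21 UMIs) in the NCD library and 15.2 CPM from 3 UMIs in the pool.

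The shares of cells with a UMI gave the same leading classes at equal depth, as the plot of shares at 1000 UMIs shows. With each cell thinned to 1000 UMIs, 34.9% (32.6 to 37.2) of 1704 neutrophils of the NCD library and 36.5% (31.5 to 41.9) of 347 neutrophils of the pool held a UMI of Slc2a3, and 0.661% and 0.192% of hepatocytes. Slc2a6 was found in 13.6% and 15.5% of neutrophils and 0.238% and 0.068% of hepatocytes, and Slc2a1 in 6.24% and 11.1% of neutrophils and 0.475% and 0.056% of hepatocytes. Hepatocytes, which are not known as a main site of these 3 genes, stand here for the background of free RNA. Without thinning, Slc2a3 was in 36.4% and 57.1% of neutrophils, whose median depth was 1021 and 2141 UMIs, and in 0.807% and 0.258% of hepatocytes, whose median depth was 759 and 847 UMIs.

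**Figure D2:**
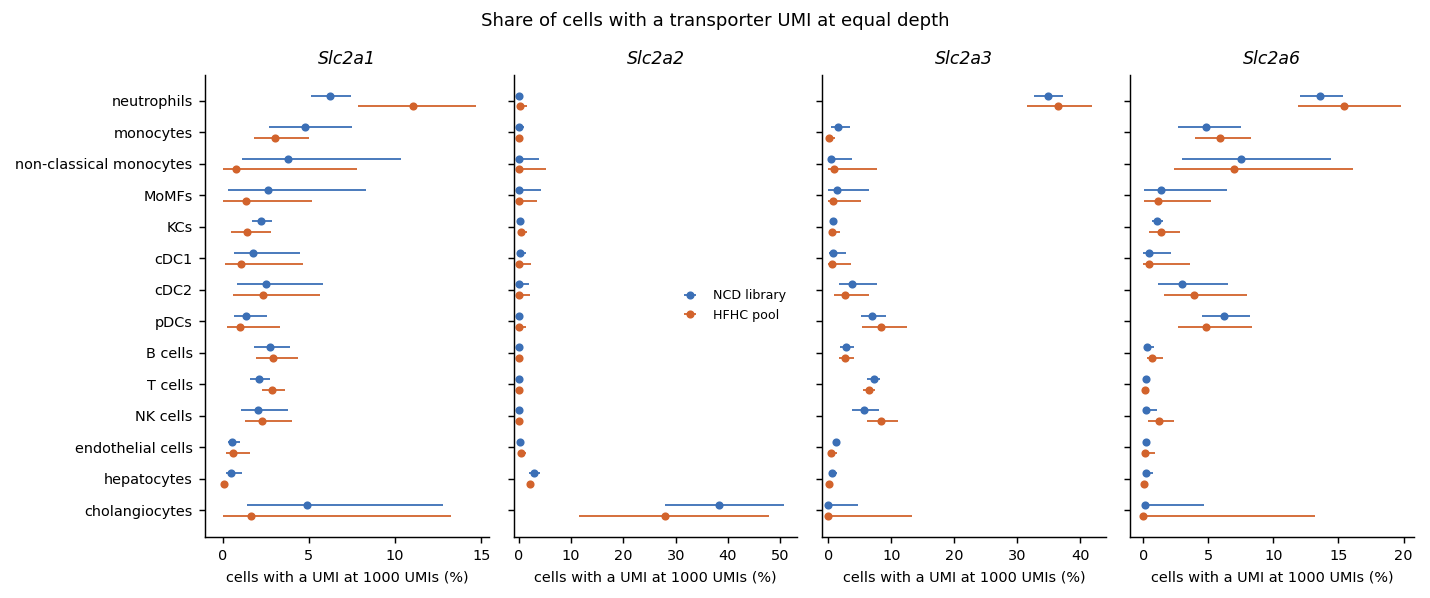
Expected share of cells with at least 1 UMI of each transporter after thinning every cell to 1000 UMIs (linear axis, percent), by cell class, in the NCD library (blue) and the HFHC pool (orange), with exact binomial 95% intervals. Cells with fewer UMIs are left out, and neutrophils lead for Slc2a1, Slc2a3 and Slc2a6 in both libraries, while cholangiocytes lead for Slc2a2 at 38.4% and 27.9%.

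Slc2a2, the hepatocyte transporter, was highest per UMI in cholangiocytes, the cells that line the bile ducts. It was measured at 498 CPM (427 to 578, 174 UMIs) in the 80 cholangiocytes of the NCD library and at 380.0 CPM (299 to 476, 75 UMIs) in the 27 of the pool. Hepatocytes had 37.9 CPM (31.7 to 44.9, 134 UMIs) and 27.0 CPM (24.5 to 29.6, 442 UMIs). The log2 ratio of cholangiocytes over hepatocytes was 3.72 (3.38 to 4.05) and 3.83 (3.44 to 4.17), or 13.1-fold and 14.2-fold. Of all genes with at least 100 UMIs in the 2 classes together, 22.3% and 30.8% were higher past 2-fold in cholangiocytes. The signal was spread over the class, in that 59 of 80 and 20 of 27 cholangiocytes had a UMI of Slc2a2, with a median of 2 per cell and a highest count of 12 and 10. Only 3.01% and 2.86% of hepatocytes had one, and 0.0927% and 0.571% of neutrophils, which should lack it. The median depth was 4189 and 7504 UMIs in cholangiocytes, and at 1000 UMIs a cell the shares were 38.4% and 27.9% in cholangiocytes, 2.91% and 2.21% in hepatocytes and 0.0679% and 0.170% in neutrophils.

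Hepatocyte RNA under the cholangiocyte barcodes was measured with 14 genes of secreted hepatocyte proteins, such as Alb and Apoa1. They summed to 12590 and 18330 CPM in cholangiocytes and to 57010 and 36120 CPM in hepatocytes. Slc2a2 had 66.5 and 74.7 UMIs per 100000 UMIs of these genes in hepatocytes and 68.3 and 104 in barcodes with under 200 genes. These barcodes stand here for free RNA, and whether they hold shallow cells was not tested. In cholangiocytes it had 3957 (3391 to 4591) and 2072 (1630 to 2598). KCs had 36.0 (21.3 to 56.8) and 60.7 (30.3 to 109), and endothelial cells 81.0 (40.4 to 145) and 50.8 (29.6 to 81.3). The few Slc2a2 UMIs of KCs and endothelial cells came near or below the ratio of hepatocyte RNA, and those of cholangiocytes far above it, as the plot of Slc2a2 against hepatocyte genes shows. No UMI of Slc2a2 was found in MoMFs, cDC2 or non-classical monocytes of either library. Of the 80 cholangiocytes, 7 were called doublets, and Slc2a2 was 554 CPM without them.

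**Figure D3:**
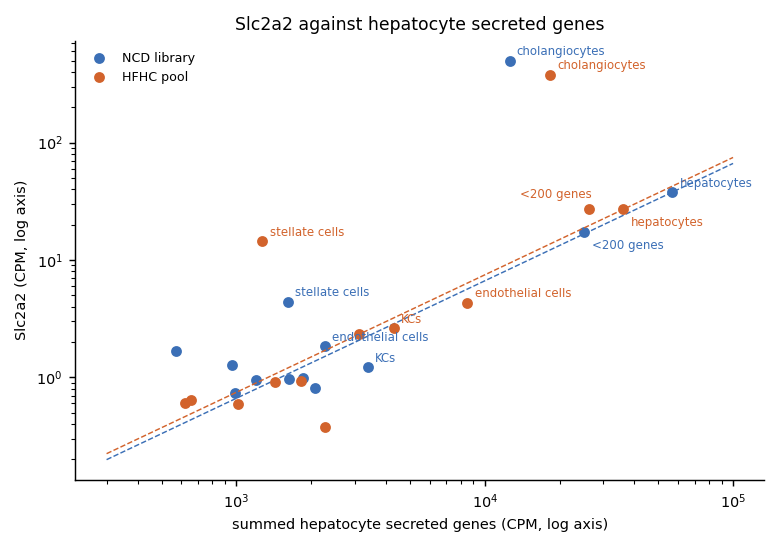
Slc2a2 (CPM, log axis) against the summed level of 14 hepatocyte secreted genes (CPM, log axis) in each class and in barcodes with under 200 genes, for the NCD library (blue) and the HFHC pool (orange). Dashed lines mark the ratio of hepatocytes in each library, classes without a UMI of Slc2a2 are not drawn, the stellate cell points rest on 1 UMI each, and both cholangiocyte points lie far above the lines.

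Cholangiocytes also held most of the sodium-coupled glucose transporter Slc5a1 (SGLT1), which takes up glucose against its gradient. It was at 272 CPM (220.1 to 333) and 365 CPM (285 to 459) there, and 95 of the 116 Slc5a1 UMIs of all barcodes of the NCD library and 72 of the 117 of the pool fell on these few cells. Hepatocytes held 0 and 5 UMIs of it. Both Slc2a2 and Slc5a1 were found in 36 of 80 and 17 of 27 cholangiocytes, and neither in 8 and 3. Cholangiocyte numbers depend on how a cell is assigned. When each cell took the class of its own marker UMIs, 92 and 85 cells were called cholangiocytes and Slc2a2 was 404 and 172 CPM, from 175 and 78 UMIs.

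Next, the HFHC pool was compared with the NCD library within each class. For 17 pairs of a transporter and a class there were at least 100 UMIs in both libraries together. None was higher past 2-fold in the pool and 2 were lower, Slc2a3 in KCs and in endothelial cells. Of all genes with that many UMIs, 5.05% were higher and 3.24% lower past 2-fold in KCs, and 9.84% and 4.55% in endothelial cells. The share of higher genes was 7.04% in hepatocytes, 7.88% in neutrophils, 5.72% in T cells, 3.46% in monocytes, 3.93% in B cells, 3.76% in NK cells and 2.89% in pDCs. The share of lower genes in the same classes was 7.39%, 4.49%, 3.17%, 2.56%, 2.0%, 2.34% and 2.04%. In endothelial cells the log2 ratio of Slc2a3 was -1.39 (-2.21 to -0.74), and -0.12 without the cells called doublets.

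**Figure D4:**
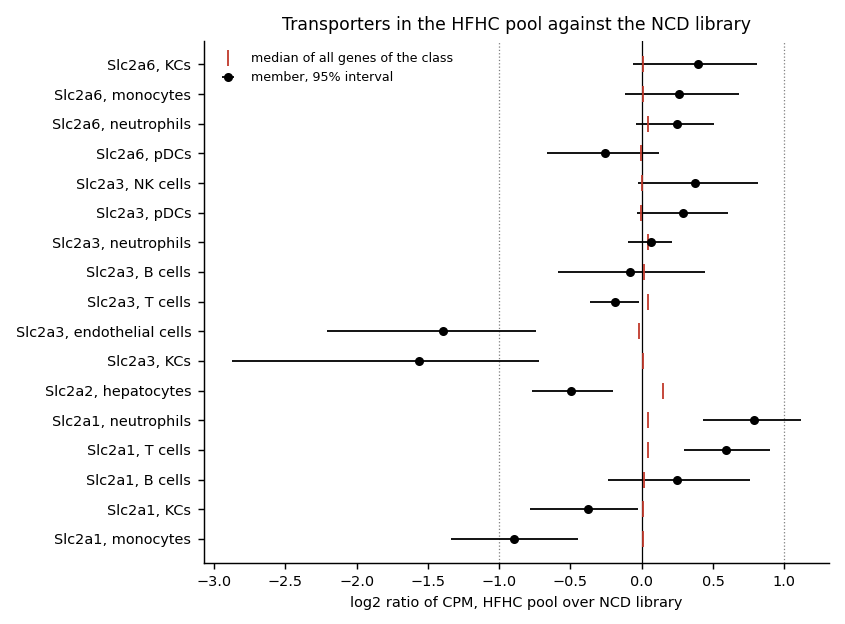
Log2 ratio of CPM, HFHC pool to NCD library, for the 17 pairs of a transporter and a class with at least 100 UMIs (points, with 95% intervals for counting error), and the median ratio of all genes of the class (red ticks). Dotted lines mark 2-fold, and Slc2a1 lies above 0 in T cells and neutrophils and below 0 in KCs and monocytes.

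In KCs the members differed in direction. Slc2a1 was 22.6 CPM (333 UMIs) in the NCD library and 17.2 CPM (72 UMIs) in the pool, a log2 ratio of -0.38 (-0.78 to -0.02). The interval included 0 with a mitochondrial limit of 10%, at -0.33 (-0.79 to 0.06), and with classes from each cell's own markers, at -0.39 (-0.89 to 0.02). Slc2a6 went the other way, from 11.5 to 15.0 CPM, with a log2 ratio of 0.40 (-0.06 to 0.81) that included 0. Slc2a3 had a log2 ratio of -1.57 (-2.87 to -0.72), which rested on 9 UMIs in the pool. Without integration it was -0.91 (-1.78 to -0.26), no longer past 2-fold. With each cell thinned to 1000 UMIs, 0.702% and 0.555% of KCs were expected to hold a UMI of Slc2a3, from 19.1 and 2.56 expected UMIs. These are so few that the 1 UMI added to each sum turns the sign of the ratio.

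KCs were then set against monocytes and MoMFs, classes between which the study compares glucose metabolism. KCs had less Slc2a1 and Slc2a6 than monocytes in both libraries. The log2 ratio of KCs over monocytes was -2.22 (-2.61 to -1.79) and -2.09 (-2.53 to -1.69) for Slc2a6 and -1.33 (-1.68 to -0.94) and -0.81 (-1.28 to -0.37) for Slc2a1, and 8.70% and 8.85% of genes with at least 100 UMIs in both classes together were lower past 2-fold in KCs. For Slc2a3 the log2 ratio was -1.05 (-1.71 to -0.20) and -0.35 (-1.85 to 1.16). At the ratio of neutrophils, neutrophil RNA would bring 4.74 of the 13.9 CPM of Slc2a3 in monocytes of the NCD library. In KCs of that library it would bring 1.07 of 6.98 CPM, and its part in the ratio was not tested. For Slc2a2 monocytes had only 1 and 2 UMIs, against 18 and 11 in KCs. For Slc2a1 in the NCD library the log2 ratio was -0.65 without the limit on genes, and of the monocytes' 2 clusters 1 stood at 83.4 CPM and the other at 22.8 CPM, beside 22.6 CPM in KCs. MoMFs gave few UMIs. They had 19.3 and 14.0 CPM of Slc2a1 from 6 and 12 UMIs and 9.67 and 8.18 CPM of Slc2a6 from 3 and 7 UMIs. KCs over MoMFs had a log2 ratio of 0.00 (-0.92 to 1.68) and 0.19 (-0.60 to 1.31) for Slc2a1, so that no difference was detectable at this depth. For Slc2a6 it was -0.15 (-1.32 to 2.54) and 0.71 (-0.25 to 2.25). Of genes with at least 100 UMIs in KCs and MoMFs together, 9.49% and 2.86% were lower past 2-fold in KCs, and 8.08% and 7.09% higher. In the pool none of the 4 members had that many UMIs. For Slc2a3 the log2 ratio was -1.19 (-2.29 to 1.02) and -1.97 (-3.53 to -0.27), the latter from 9 UMIs in KCs and 7 in MoMFs. Monocytes over MoMFs had a log2 ratio of 1.33 (0.35 to 3.03) and 1.01 (0.24 to 2.11) for Slc2a1 and of 2.07 (0.86 to 4.77) and 2.79 (1.91 to 4.31) for Slc2a6, with intervals above 0, while of the genes with at least 100 UMIs in both classes together, which in the NCD library include neither, 10.7% and 7.63% were higher past 2-fold in monocytes. These ratios rest on the same 3 to 12 UMIs of MoMFs.

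In other leukocytes Slc2a1 had ratios of opposite sign. In neutrophils the log2 ratio of the pool over the NCD library was 0.79 (0.43 to 1.12) and in T cells 0.59 (0.29 to 0.90), whereas in monocytes it was -0.90 (-1.34 to -0.44), and -0.47 (-1.27 to 0.39) without the limit on genes. Monocytes fell into 2 clusters. Slc2a1 was 83.4 CPM and 32.4 CPM in the cluster with Ly6i and Cxcl9, a chemokine induced by interferon, among its leading genes, a log2 ratio of -1.36 (-1.88 to -0.84). In the cluster with F13a1 and Vcan, genes of classical monocytes, it was 22.8 and 26.8 CPM, a log2 ratio of 0.18 (-0.70 to 1.25). The difference between the 2 clusters was not tested.

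In neutrophils the ratios depended on the cells compared. In the integrated clustering, 97.1% of neutrophils of each library lay in 1 cluster. Clustering without integration, where the libraries themselves can set clusters apart, split them into a cluster led by Retnlg and Mmp8, a granule collagenase, with 2689 NCD cells and 18 cells of the pool, and a cluster with Cxcl2, Ptgs2 and Il1b, inflammatory genes, among its leading genes, with 532 and 331 cells, beside a small one of 107 and 8 cells. Slc2a1 was 73.3 and 74.2 CPM in the first, where the pool had 3 UMIs, and 61.2 (45.1 to 81.2) and 117 (94.2 to 143) CPM in the second. It was 45.9 (25.1 to 77.1) and 99.0 (32.1 to 231) CPM in the small one. In the second cluster Slc2a3 was also higher in the pool, with 316 (278 to 358) and 498 (450 to 549) CPM, although over all neutrophils it was nearly level and in the first cluster it was 531 (505 to 559) and 519.5 (322 to 794) CPM. In the small one it was 243 and 317 CPM. Slc2a6 was 115 (92.3 to 141) and 180 (152 to 212) CPM in the second cluster, 160 and 247 CPM in the first and 45.9 and 39.6 CPM in the small one. Dissociation genes summed to 15060 and 30030 CPM in the same cells, and their part in these differences was not tested.

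In T cells the ratio of Slc2a3 over the class had the opposite sign of that in 3 of its 4 clusters, as the plot of levels within clusters shows. Over all T cells Slc2a3 was lower in the pool, with a log2 ratio of -0.19 (-0.36 to -0.02), which was 0.00021 when the mitochondrial limit was set at 10% and -0.16 (-0.34 to 0.01) without doublets. Within the cluster led by Cxcr6 and Tcrg-C1, a chemokine receptor of liver T cells and a constant gene of the gamma T cell receptor, it was 96.9 CPM in the NCD library and 121 CPM in the pool, a log2 ratio of 0.33 (0.09 to 0.55). It was 32.4 and 42.8 CPM in the cluster led by Foxp3 and Tcf7, transcription factors of regulatory and naive T cells, and 52.5 and 62.6 CPM in the cluster led by Gzmk and Cd8a, genes of cytotoxic T cells, with log2 ratios of 0.37 (-0.13 to 0.97) and 0.20 (-0.38 to 0.96), both with intervals that included 0. In the cluster led by Pclaf and Top2a, genes of dividing cells, it was 40.5 and 37.4 CPM, a log2 ratio of -0.10 (-1.0 to 0.76). The cluster with the highest Slc2a3 made up 71.3% of T cells on NCD and 23.9% in the pool, and the Gzmk cluster 5.41% and 35.4%. Slc2a1 was higher in the pool in the Cxcr6 cluster, with 23.1 and 39.7 CPM, and in the Foxp3 cluster, with 14.4 and 27.9 CPM. It was 23.9 and 31.3 CPM in the Gzmk cluster, at a log2 ratio of 0.27 (-0.54 to 1.49), and 14.0 and 18.7 CPM in the Top2a cluster, at 0.39 (-0.99 to 1.87).

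**Figure D5:**
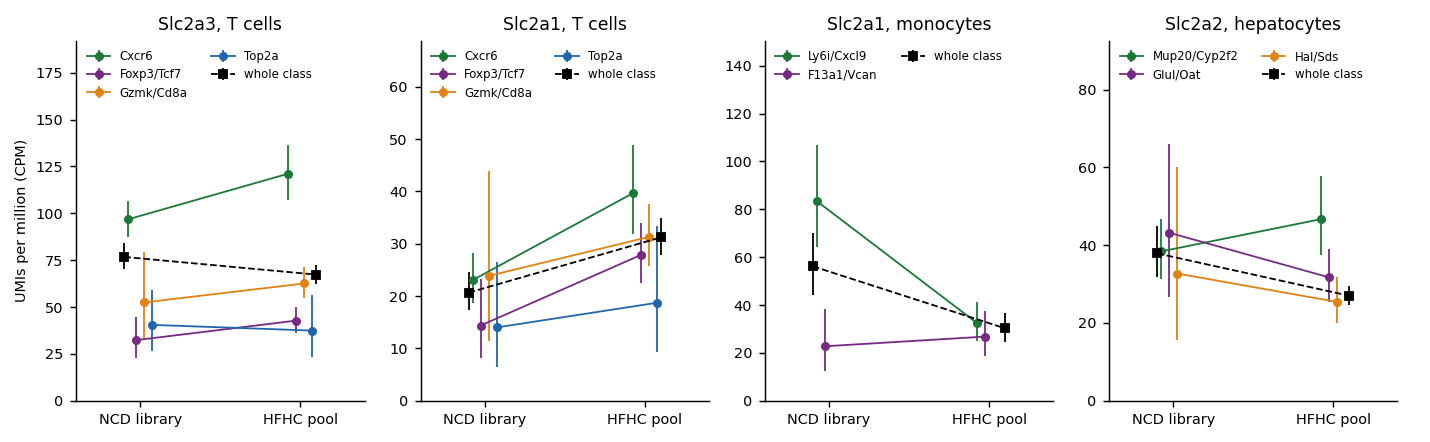
Levels (CPM, linear axis) of Slc2a3 and Slc2a1 in clusters of T cells, of Slc2a1 in clusters of monocytes and of Slc2a2 in 3 clusters of hepatocytes, in the NCD library and the HFHC pool, with exact Poisson 95% intervals, clusters named by leading genes and the whole class in black. Slc2a3 has a higher value in the pool in 3 of the 4 T cell clusters, with an interval of the ratio above 0 in the Cxcr6 cluster alone, while the class as a whole goes from 76.8 to 67.3 CPM.

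In hepatocytes Slc2a2 was lower in the pool, from 37.9 to 27.0 CPM, with a log2 ratio of -0.50 (-0.77 to -0.20). The interval included 0 when a shallow unnamed cluster was counted as hepatocytes, at -0.23 (-0.48 to 0.05), without the limit on genes, at -0.26, and with classes from each cell's own markers, at -0.25. The median of all genes in hepatocytes was 0.15, and relative to it the log2 ratio of Slc2a2 was -0.64. In the cluster led by Mup20, with the periportal gene Cyp2f2 among its leading genes, Slc2a2 was 38.4 and 46.7 CPM, a log2 ratio of 0.28 (-0.15 to 0.71). That cluster held 69.3% of hepatocytes on NCD and 6.33% in the pool. In the cluster with the pericentral genes Oat and Glul it was 43.2 and 31.7 CPM, with a log2 ratio of -0.50 (-1.15 to 0.31). In another cluster with periportal genes, Hal and Sds, it was 32.7 and 25.4 CPM, with a log2 ratio of -0.48 (-1.32 to 0.75). Most hepatocytes of the pool lay in 3 clusters with 31.2%, 26.3% and 16.1% of its hepatocytes, in which Slc2a2 was 21.8, 22.8 and 21.2 CPM and the lipogenic gene Thrsp led the first 2. Hepatocytes are not the target of an NPC isolation, and their median depth was 759 and 847 UMIs.

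The other sugar transporters ranged from no UMI to the 2107 and 3318 UMIs of Slc50a1 in all barcodes, with Slc37a2 at 1345 and 1950 and Slc37a4 at 711 and 1000. Of the 20 others in the list, 6 had at least 100 UMIs in KCs, with none past 2-fold in either direction and a median log2 ratio of -0.05, against 0.01 for all genes. In T cells 5 of 20 had as many UMIs, and the intracellular transporter Slc2a8 (GLUT8) was lower past 2-fold, at 14.8 and 6.51 CPM. In hepatocytes 3 of 20 did, and Slc37a4, which carries glucose-6-phosphate into the endoplasmic reticulum, was lower past 2-fold, at 25.7 and 11.5 CPM. Slc37a2, a sugar-phosphate carrier of macrophages, was 58.0 and 105 CPM in MoMFs and 51.9 and 67.6 CPM in KCs. Slc50a1 (SWEET1) was highest in B cells at 97.6 and 122 CPM. The insulin-regulated Slc2a4 (GLUT4) had 0 and 5 UMIs in all barcodes and the intestinal Slc2a7 0 and 1.

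The enzymes that act on glucose just after uptake also differed between classes. Hk3 was 196 and 124 CPM in neutrophils and 176 and 129 CPM in KCs. Hk2, which sits on the outer mitochondrial membrane, was 103 and 65.4 CPM in MoMFs, from fewer than 100 UMIs in both libraries together, 90.5 and 70.8 CPM in monocytes and 67.3 and 89.5 CPM in KCs. Hk1 was 86.9 and 70.2 CPM in NK cells and 86.8 and 68.4 CPM in T cells. G6pc, the phosphatase that releases glucose from hepatocytes, was 118 and 31.6 CPM, a log2 ratio of -1.91, and the only 1 of the 3 genes of this list with at least 100 UMIs in hepatocytes that was past 2-fold. In KCs 5 of the 10 genes of glucose phosphorylation and release had as many UMIs and none was past 2-fold, with a median log2 ratio of 0.16.

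Glycolysis genes after phosphorylation had at least 100 UMIs in KCs for 16 of 21, with 3 higher past 2-fold, none lower and a median log2 ratio of 0.63. Among them were the enolase Eno1, at 82.0 and 190 CPM, and Pklr, the liver form of pyruvate kinase, at 4.40 and 16.9 CPM. In hepatocytes Pklr was 196 and 406 CPM, and the 14 hepatocyte secreted genes summed to 3391 and 4313 CPM in KCs. Their part in the Pklr value was not tested. The median log2 ratio of the list was above that of all genes in each of the 13 classes, from 0.04 in monocytes to 0.73 in B cells, and in endothelial cells 7 of 15 genes were higher past 2-fold. In endothelial cells the hepatocyte secreted genes also went from 2264 to 8509 CPM, with 12 of 14 higher past 2-fold, and dissociation genes from 4110 to 10990 CPM, whose part was not tested. Genes that control glucose transporters had as many for 13 of 15 in KCs, with 1 lower past 2-fold, Igf1r at 7.86 and 3.33 CPM. In T cells 13 of 15 had as many, with a median log2 ratio of 0.06. Of these Txnip, which promotes the internalisation of GLUT1, was lower past 2-fold, at 495 and 239 CPM, and its relative Arrdc4 was higher past 2-fold, at 4.93 and 14.9 CPM. HIF target genes had as many for 11 of 16 in KCs, with Bnip3 and Adm higher past 2-fold and a median log2 ratio of 0.00. In neutrophils 9 of 16 did, with a median log2 ratio of 0.31, against 0.04 for all genes. Of these only Vegfa was higher past 2-fold, at 41.7 and 171 CPM. Of all genes, 5.05% were higher past 2-fold in KCs and 7.88% in neutrophils.

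The genes most like each member were ranked by Pearson's r of log2 levels over 26 points, the 13 classes in each of the 2 libraries, among 12173 genes. Cholangiocytes, where Slc2a2 was highest, had 27 cells in the pool and are not among the 13 classes. Over these classes the median of Slc2a2 was 0.966 and 0.637 CPM, against 37.9 and 27.0 CPM in hepatocytes. Its r values thus rest mostly on hepatocytes against the rest. Slc2a6 ran most closely with Fgr, a kinase of myeloid cells (r = 0.95). Slc2a2 ran with Eva1a (r = 0.96), Dsp, Proc, Agt and Dnase2b, and Slc2a1 with Gpsm3 (r = 0.87), Gmip, Slfn2, Gmfg and Fgd3. Slc2a3 ran with Mgea5 (r = 0.86), Trim12c, Srpk2, Tmem154 and Rnf167. Among the members, r was 0.57 for Slc2a1 with Slc2a6, 0.53 for Slc2a1 with Slc2a3 and 0.34 for Slc2a3 with Slc2a6, while Slc2a2 had -0.56 with Slc2a1, -0.43 with Slc2a6 and -0.21 with Slc2a3. The points of a library share its capture and depth, and r is given as a description.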

How the data were processed

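Per the file headers, the authors made both tables with the BD Rhapsody pipeline 1.10.1 on GRCm38 with GENCODE M19, and deposited counts of error-corrected molecules (UMIs) per cell and gene, unscaled. Per the submitters' processing notes, Seurat was used. Cells, filters and clustering followed the study's methods: 200 to 4000 genes, at most 25% mitochondrial UMIs, genes in at least 3 cells, SCTransform (sctransform 0.4.2) with 4000 variable genes, reciprocal PCA integration in Seurat 5.3.0 (R 4.3.3), resolution 0.8, and 0.5 for a second clustering of monocytes and macrophages. The 30 principal components and 20 neighbours were chosen here. Limits taken strictly left 23312 cells of the NCD library, the number that the study states for NCD, and inclusive limits, as used, 23346. All Slc2a genes were left out of the clustering. A cluster was named by the class with the highest mean log2 ratio of its markers over the other clusters (10 CPM added), where this was at least 1, at least 3 markers were found in 10% of its cells, and markers of no other class outnumbered its own among its 10 leading genes. Clusters with markers of 2 lineages and shallow clusters without own leading markers were left out. These thresholds were set after the clusters were seen. Doublets were marked with Scrublet (scanpy 1.11.5) and kept. Multiplets were thus left out only by the limit on genes or with the clusters that had markers of 2 lineages.

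The NCD library held 53720863 UMIs in 30734 barcodes and the HFHC pool 71981673 UMIs in 21601. UMIs were summed over a class and scaled to CPM, with exact Poisson intervals. Shares have exact binomial (Clopper-Pearson) intervals and were thinned to 1000 UMIs by their exact expectation. For ratios, 1 UMI was added to each sum before CPM were divided and put on a log2 scale, with conditional exact binomial intervals, for at least 100 UMIs in both groups together where libraries are compared within a class. Ratios between classes and within clusters are also given below that number. All intervals cover counting error only, and a count of 0 allows up to 3 UMIs. The ratio and interval functions were tested on simulated data.

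The members and gene lists were chosen with earlier results of these data known. The text names the 4 members, genes of the written lists with at least 100 UMIs in the class described, and the 5 genes most like each member (at least 200 UMIs, 1 CPM added before the log). Clusters described within a class, the level in cholangiocytes and genes with fewer UMIs named beside them were chosen after their values were seen. Some genes that these rules would name are not reported here.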

Additional observations from a re-analysis of the deposited data

Results flagged for a closer look

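Slc2a1 stood out because its difference between the HFHC pool and the NCD library went in opposite directions in different cell classes. The log2 ratio was 0.59 in T cells and 0.79 in neutrophils, with intervals above 0, and -0.38 in KCs and -0.90 in monocytes, with intervals below 0. The interval included 0 in KCs with a mitochondrial limit of 10% and with classes from own markers, and in monocytes without the limit on genes. With 1 library per condition the difference between classes was not tested. Over the alternatives run, it stayed between 0.48 and 0.67 in T cells, between 0.74 and 0.89 in neutrophils, between -0.51 and -0.33 in KCs and between -1.03 and -0.47 in monocytes.

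Slc2a6 was measured at 9.41 CPM (8.07 to 10.9, 177 UMIs) in the 812 cells of the HFHC pool with more than 4000 genes. The gene limit leaves these cells out of the classes. In the 67 such cells of the NCD library it was 3.11 CPM (0.847 to 7.96) from 4 UMIs. These values are not split by cell type, so that a different mix of cell types cannot be told apart from other differences between the libraries. In the same cells Slc2a2 was 8.45 CPM in the pool and 27.2 CPM in the NCD library.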

How the results depend on the processing

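No paired analysis was possible because each condition has 1 library. The 17 ratios between libraries stayed within their counting interval in 131 of 137 recomputations. For ratios whose main interval excluded 0, this fixes the direction in advance, and some of their recomputed intervals included 0, as given above. The other 6 follow, of which 2 were reversed: the log2 ratio of Slc2a3 in KCs was 0.048 with each cell thinned to 1000 UMIs, where the 1 UMI added to each sum turns the sign, since expected UMIs per cell were still lower in the pool, and that in T cells 0.00021 with a mitochondrial limit of 10%. In endothelial cells the log2 ratio of Slc2a3 was -0.12 without doublets and -4.18 without integration. The cause of these differences was not tested. Slc2a6 in monocytes was 0.70 without an upper gene limit, and Slc2a3 in neutrophils 0.25 with classes from each cell's own markers. Among the 131, Slc2a3 in B cells changed sign without integration, from -0.08 to 0.03, with an interval that included 0. In the same class it was -0.57 without the gene limit and at resolution 1.0, with intervals below 0. Against monocytes, KCs of the NCD library had log2 ratios of -0.65 for Slc2a1 and -1.64 for Slc2a6 without the gene limit. Against MoMFs, with classes from own markers, Slc2a6 was -1.45 on NCD and -0.36 in the pool, against -0.15 and 0.71. Without integration only 4 cells of the pool were MoMFs, too few for a ratio. The comparison of KCs with MoMFs thus depends on how MoMFs are assigned. The alternatives for KCs against other macrophages, the added hepatocyte cluster and the cholangiocyte levels were chosen after seeing the data.

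Levels moved beyond their interval for Slc2a2 in hepatocytes, to 31.4 CPM in the NCD library with a shallow unnamed cluster added and to 31.8 CPM in the pool without the gene limit. In cholangiocytes Slc2a2 was 598 CPM with a mitochondrial limit of 10% and 404 CPM with own-marker classes in the NCD library, and 172 CPM with the latter in the pool. Slc2a3 in neutrophils was 516 CPM without doublets in the NCD library and 568 CPM with own-marker classes in the pool.

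Shares of cells depended on depth. At 2000 UMIs, shares on NCD and in the pool were 8.97% and 19.5% for Slc2a1 in neutrophils, 7.47% and 4.22% for Slc2a2 in hepatocytes and 46.1% and 50.2% for Slc2a3 in neutrophils, and 24.8% for Slc2a6 in neutrophils of the pool. Unthinned, those of the pool were 22.6%, 2.86%, 57.1% and 28.3%. At 2000 UMIs Slc2a1 on NCD was in 9.39% of monocytes and 10.1% of cholangiocytes, above its share in neutrophils, with intervals that overlapped. With genes of at least 20 UMIs, 8.02% were higher past 2-fold in KCs, against 5.05%. Of the 5 genes most like a member, with 10 CPM added, from NCD cells alone and from the pool alone, Slc2a1 shared 3, 1 and 1, Slc2a2 shared 0, 1 and 1, and Slc2a3 shared 3, 3 and 1. Slc2a6 shared 2 in the pool alone.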

Other observations

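Cells outside the named classes also held transporter RNA. A cluster led by Cd209a, Tppp3 and Runx2, left unnamed because markers of another class led it, had 31.9 CPM of Slc2a3 in 93 cells of the NCD library and 67.9 CPM in 71 cells of the HFHC pool, and 37.3 and 43.9 CPM of Slc2a6. The mixed clusters had 48.6 CPM of Slc2a3 with 3055 CPM of S100a8 and S100a9 in the NCD library, and 23.3 CPM with 687 CPM in the pool.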
